A study of Mus musculus with 12 samples.

Results

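The 2 arrays described here carried RNA labelled as microglia of wild type male mice, 8 weeks old, taken before transient middle cerebral artery occlusion (tMCAO), a model of stroke in which the artery is blocked and reopened. They were chosen by that label alone, and they are 2 of the 12 samples of the series. The other samples were ZEB1-overexpression, ZEB1 knock down and wild type cells before or after tMCAO, and no comparison with them was made. Per the labels, cells were separated from brains with magnetic beads and an enrichment kit for CX3CR1, the fractalkine receptor that microglia carry, and total RNA was labelled with the dye Cy3. The labels number the samples as replicates 1 and 2 but do not say whether they came from separate animals or whether brains were pooled. The spread between them may therefore be partly technical.

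Microglia are the resident macrophages of brain tissue. They depend on signals through the receptor CSF1R and on TGF-beta, and in the healthy brain they show a homeostatic programme that includes P2ry12, Tmem119, Cx3cr1 and Sall1. They share complement, Fc receptor and lysosomal genes with other macrophages. Neurons, astrocytes and oligodendrocytes make up the tissue they are separated from.

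Levels are given as the log2 signal of a probe minus the 75th percentile of all gene spots on the same array, so that a level of 0 lies at that percentile. A gene was counted as measured where a probe was well above background on both arrays, and it was represented by its brightest such probe. Of 23462 genes with a named probe, 17320 (73.8%) were measured. Another 390 had probes above background that carried a spot marked as irregular, and 5752 were not above background on both arrays. No spot was saturated. The 75th percentile was 3581 intensity units on replicate 1 and 3306 on replicate 2. The scanner software marked the slope of the spike-in controls as out of its range on both arrays (0.686 and 0.692), and the effect of this on the levels was not tested. Percentiles below are places in the order of measured genes on 1 array. They order the brightness of different probes, which depends on the probe as well as on the transcript, so they are not ratios of transcript numbers.

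The 2 arrays ranked genes nearly alike. Across the measured genes, which are not independent replicates, Pearson's r between the arrays was 0.993 and Spearman's rho 0.995. The median absolute difference was 0.14 log2 units. It was 0.09 among the 2507 genes with a mean level of at least 2 and 0.27 among the 2897 genes below -4, so the dim end of the ranking was less well fixed. A difference of more than 1 log2 unit was found in 288 genes (1.66%), of which 152 (0.878% of all measured) were higher on replicate 2. No spot had identical signals on both arrays, so they are not copies of 1 scan.

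The signals did not describe microglia alone. The list of 17 neuronal genes had a median percentile of 93.0 on replicate 1 and 92.3 on replicate 2, with 15 members measured. The 15 astrocyte genes, all measured, lay at medians of 89.8 and 90.1. The 16 oligodendrocyte lineage genes, all measured, lay at 81.9 and 72.9. The homeostatic microglia list, with 23 of 26 members measured, lay at 69.3 and 62.1, and the pan-macrophage and myeloid list, with 23 of 24 measured, at 76.4 and 78.2. The data thus go against the label where it is read as a pure population, and the arrays are called below by their label only. In RNA from a mixture of cells, fewer cells of a type and less RNA per cell cannot be told apart, and whether the other cells' RNA came through the sort was not tested.

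**Figure D1:**
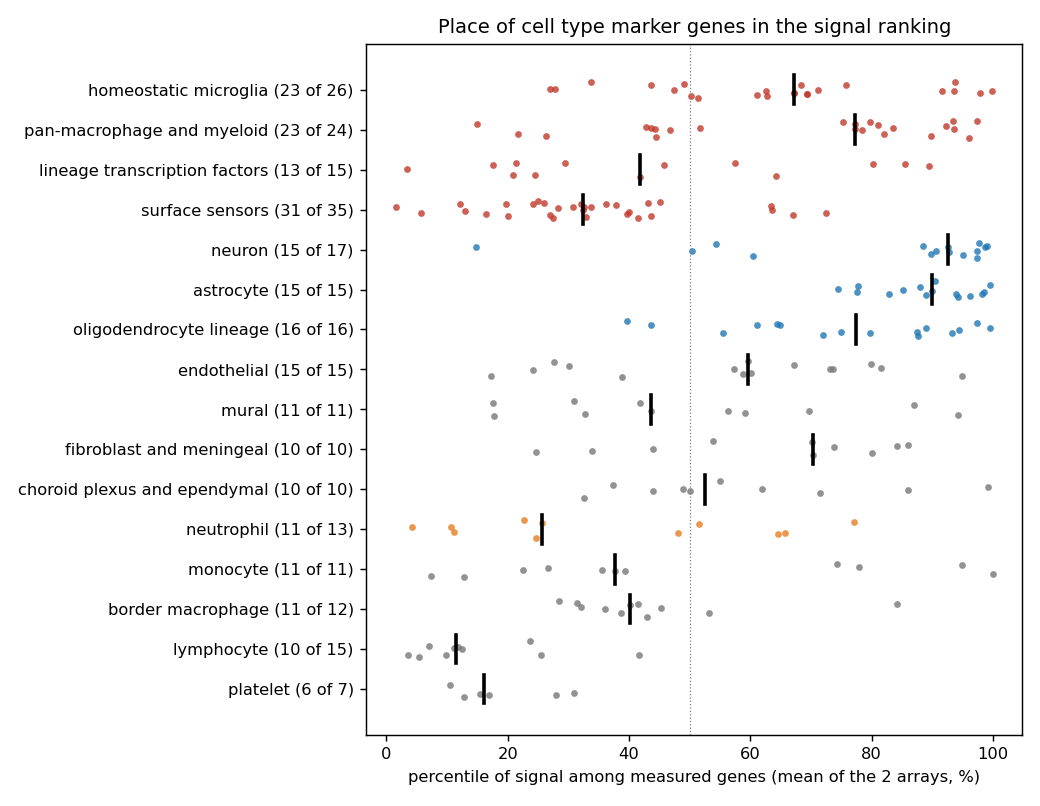
Percentile of signal (mean of the 2 arrays, horizontal axis) for the measured members of 16 marker lists (rows). Each point is a gene, the black bar is the median of the points, and the label gives the measured members of those with a named probe. Above the 75th percentile lie 11 of 15 neuronal, 14 of 15 astrocyte and 6 of 23 homeostatic microglia genes. Homeostatic microglia genes spread from 27.0 upward, and 1 neuronal gene lies below the 25th percentile.

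The homeostatic genes described first all lay above the 90th percentile. Cst3, encoding the protease inhibitor cystatin C, had levels of 4.36 and 4.60 on replicates 1 and 2. Sparc, a matrix glycoprotein also made by endothelial cells, had 3.50 and 3.44. Gas6, a bridging ligand for dying cells, had 2.75 and 2.77, and the receptor gene Csf1r had 2.62 and 2.50, with its other probe at 0.70. Cst3 and Gas6 are also known from other brain cells, so their place is not specific to microglia.

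The genes usually used to tell microglia from other macrophages lay lower. Cx3cr1, whose product was the handle of the sort, had levels of 1.17 and 0.28, that is 8045 and 4023 intensity units. Tmem119, a membrane protein used as a microglial marker, had 0.48 and 0.37. The orphan receptor gene Gpr34 had 0.57 and 0.27. Both arrays placed these 3 genes in the upper part of the ranking, with mean percentiles of 67.2, 62.8 and 62.6. The purinergic receptor gene P2ry13 lay at -0.52 and -0.94. Siglech, a sialic acid-binding lectin, had -0.35 and -0.85 from 1 probe. Its other probe carried a marked spot, and with it kept Siglech had 1.41 and 2.36, higher on replicate 2. Lowest were Olfml3 (-2.52 and -2.73) and Sall3 (-2.59 and -2.86).

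The other 3 homeostatic members were bright enough but had a spot marked as irregular. With marked spots kept, the ADP receptor gene P2ry12 had levels of 1.62 and 1.03, the transcription factor gene Sall1 had -0.87 and -0.72, and the phagocytic receptor gene Mertk had 0.46 and 0.12. All 26 members were therefore above background on both arrays when marked spots were kept. Of the 23 measured without marked spots, 19 were lower on replicate 2, with a median difference of -0.21 log2 units (replicate 2 minus replicate 1). Of all measured genes, 52.9% were lower on replicate 2. The largest gap was that of Slc2a5, a fructose transporter, with -0.61 and -1.50.

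**Figure D2:**
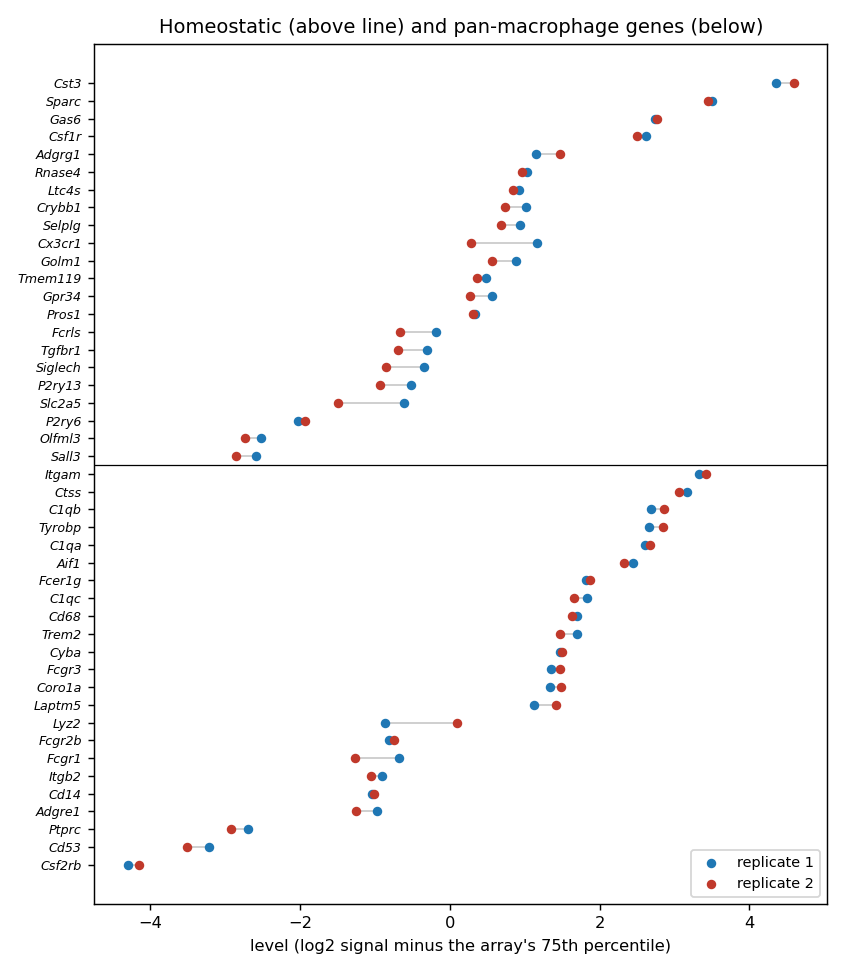
Level on replicate 1 (blue) and replicate 2 (red) of measured homeostatic (above the line) and pan-macrophage genes (below it). Horizontal axis, log2 signal minus the array's 75th percentile. Cx3cr1, Slc2a5 and Lyz2 show the widest gaps between the arrays.

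Genes shared by macrophages were led by Itgam, the CD11b integrin chain, at 3.33 and 3.42, and by the protease gene Ctss at 3.17 and 3.06. The complement C1q chains C1qb (2.68 and 2.86), C1qa (2.60 and 2.68) and C1qc (1.83 and 1.66) lay above the 80th percentile. So did the adaptor genes Tyrobp (2.66 and 2.84) and Fcer1g (1.82 and 1.88). Aif1, which encodes the calcium-binding protein IBA1, had 2.45 and 2.32, and Trem2, a lipid-sensing receptor, had 1.70 and 1.48. The widest gap between the arrays among these genes was that of Trem2, at -0.22 log2 units (replicate 2 minus replicate 1). Lyz2, the lysozyme gene, differed more, with -0.87 and 0.09. Ptprc, the CD45 phosphatase that all leukocytes carry, had only -2.69 and -2.92.

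Transcription factors of the lineage lay lower still, with list medians of 42.1 and 41.5. The mean of the 2 medians was 41.8, but 49.9 with marked spots kept. It was 50.2 with the median over a gene's probes and 38.3 with probes above background on at least 1 array. Mef2c, a factor that neurons also use, was brightest at 2.33 and 2.36, with its other probe at -0.17. Irf8, a factor of the myeloid lineage, had -0.78 and -0.95. Spi1, which encodes the master macrophage factor PU.1, was near the floor at -5.76 and -5.98 from a single probe. Tfec was not above background on both arrays. The 35 surface sensors had medians of 32.8 and 31.1 over 31 measured members, and none lay above the 75th percentile. Tlr2 had -1.56 and -1.59 and Tlr4 had -2.73 and -2.69. Both are receptors for microbial products.

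The genes that the study altered or that belong to the same family were measured. Zeb2, a zinc-finger repressor that myeloid cells need, had 2.14 and 2.15 from its brightest probe, while its other probes averaged 1.06 and -0.65. Zeb1 had -0.40 and -0.64, near the middle of the ranking, and its other probe averaged -0.58.

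Lysosomal genes stood high as a list, with medians of 92.4 and 91.3 over 20 of 22 members. Grn, the progranulin gene, had 3.98 and 4.06, though its next probe averaged only -1.02. Ctsd, an aspartic protease, had 3.38 and 3.37, and Lamp1 had 3.31 and 3.33. The disease-associated microglia list had medians of 61.7 and 63.2 over 17 measured members, of which 7 lay above the 75th percentile and 4 below the 25th. Apoe, the lipid carrier that astrocytes make in quantity, led it with 4.59 and 4.74. Cst7, a protease inhibitor, had -4.26 and -4.02, and the integrin gene Itgax was dimmest with -6.12 and -6.25.

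Inflammatory genes were low as well, with list medians of 27.4 and 33.2. Il1b had -2.29 and -1.86 and Tnf had -6.12 and -6.56. Cxcl2, Il10 and Il1rn were not above background on both arrays. Il18, a cytokine kept as a precursor in resting cells, was the exception at 2.12 and 2.12. Cell-cycle genes had medians of 27.0 and 23.6, with Mki67 at -3.12 and -3.94. Of the 16 measured, 8 lay below the 25th percentile and 1 above the 90th, at a mean level of 2.42. Interferon-response genes lay in the middle, at 55.7 and 50.5, led by Ifit3 (1.88 and 1.62). Of the antigen presentation genes, B2m, the light chain of class I molecules, had 3.08 and 3.02, and the class II gene H2-Aa had -3.01 and -1.89.

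The neuronal members were bright in most of their functions. Snap25, part of the synaptic fusion machinery, had 3.73 and 3.94, and its other probe averaged 0.97. The kinase gene Camk2a had 3.68 and 3.81, and its other probe averaged -2.59. Thy1 had 3.44 and 3.45, Stmn2 had 3.33 and 3.41, and Syn1, a synaptic vesicle protein, had 3.29 and 3.41. Rbfox3, the NeuN antigen of neuronal nuclei, had 2.90 and 3.06, and its other probes averaged 1.70 and -5.25. All 6 measured neuronal genes with several probes had one that was more than 2 log2 units lower or not measured, and the other 9 had a single probe. Of the measured members, 9 of 15 lay above the 90th percentile. The vesicular glutamate transporter Slc17a7 had only -0.41 and -0.57. Gad2, an enzyme that makes the transmitter GABA, had 2.69 and 2.68. Gad1, for the same step, had -3.75 and -4.75 from 1 probe, but 2.22 and 2.22 from its other probe with a marked spot kept. The 2 other members, Syt1 and Nefl, carried marked spots and had 3.37 and 3.57, and 3.09 and 2.89, with them kept.

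Glial genes were led by Aldoc, a glycolytic enzyme of astrocytes, at 4.06 and 4.22. Its other probe averaged 3.85. Ntsr2 had 3.70 and 3.68, S100b had 3.56 and 3.60, and Mlc1 had 3.11 and 3.18. The dimmest astrocyte members were the water channel gene Aqp4 (1.14 and 1.32) and Gfap, the intermediate filament of astrocytes (1.46 and 1.40). Among oligodendrocyte genes, Mbp, encoding a main myelin protein, had 4.04 and 4.09, and its other probes averaged 2.58 and 1.94. Mobp had 2.94 and 2.81. Olig2, at -1.30 and -1.47, was lowest. Replicate 1 gave the higher value for 15 of the 16 oligodendrocyte genes, by a median of 0.27, and for 52.9% of all measured genes.

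Vessel, barrier and blood genes were present at different heights. Endothelial genes had medians of 62.1 and 56.0, with Ly6c1 at 3.06 and 2.85 and the tight-junction gene Cldn5 at 1.71 and 1.71. Mural genes had 45.0 and 42.2. Ttr, the transthyretin gene of the choroid plexus, had 3.89 and 3.99, with its other probe at 1.68, while its list had medians of 53.9 and 51.2. Globin genes were bright, with Hba-a1 at 2.32 and 2.62 and Hbb-bt at 2.36 and 2.38. The erythroid membrane gene Epb42 was not above background.

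Leukocyte genes other than microglial ones were mostly dim. Lymphocyte genes had medians of 8.83 and 15.4. Of 15 members, 5 were not above background on both arrays, among them Cd79a and Ms4a1. The same held for 5752 of all 23462 genes with a named probe. Border macrophage genes had medians of 39.1 and 39.1, with the mannose receptor Mrc1 at -2.05 and -2.36. Of the 11 measured, 1 lay above the 75th percentile, at a mean level of 1.89, and none lay below the 25th. Monocyte genes had 28.1 and 47.3, and 2 of the 11 measured lay above the 90th percentile. Ccr2, the chemokine receptor that marks inflammatory monocytes, had -5.07 and -3.99, whereas Ms4a4c, also listed for monocytes, was among the brightest genes at 4.79 and 4.95 from its single probe. Of the sex genes, Eif2s3y, Ddx3y, Kdm5d and Uty were measured and Xist was not above background on either array, as for the labelled sex.

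The 30 genes with the highest mean level were, in order, Zcchc9, Pak4, Sp110, Sgsh, Pdp2, Eya1, Ms4a4c, Ephb3, Arl6ip6, Ung, Skint7, Hemgn, Mms22l, Tmem239, Ldlrad3, Plekhg3, Apoe, Ubb, Ubtf, Itsn1, Nrp2, Srek1, Slc10a1, Mtfr2, Sema4c, Cox4i1, Slc3a2, Timmdc1, Spag7 and Cst3. Their levels ran from 5.30 for Zcchc9 to 4.48 for Cst3, and the next gene was also at 4.48. The arrays taken singly shared 26 of their own 30 brightest genes.

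Their place rested mostly on 1 probe. Of the 30 genes, 6 had a single probe, and 21 of the other 24 had another probe that was more than 2 log2 units lower or was not measured. Zcchc9, a zinc-finger gene, had 5.27 and 5.32 from its brightest probe, but its other probe averaged -1.83. Sp110, a nuclear body gene, had 5.20 and 5.10 against -4.84 for its dimmest probe. Itsn1, an endocytic scaffold, had 9 measured probes of 10, and they spread from 4.65 down to -4.50. Over all 5890 genes with 2 or more measured probes, the median range between probes of a gene was 2.18 log2 units. In 53.1% of them it was over 2. The median absolute difference of 0.14 between arrays is an unlike measure, taken over all measured genes with 1 probe each.

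**Figure D3:**
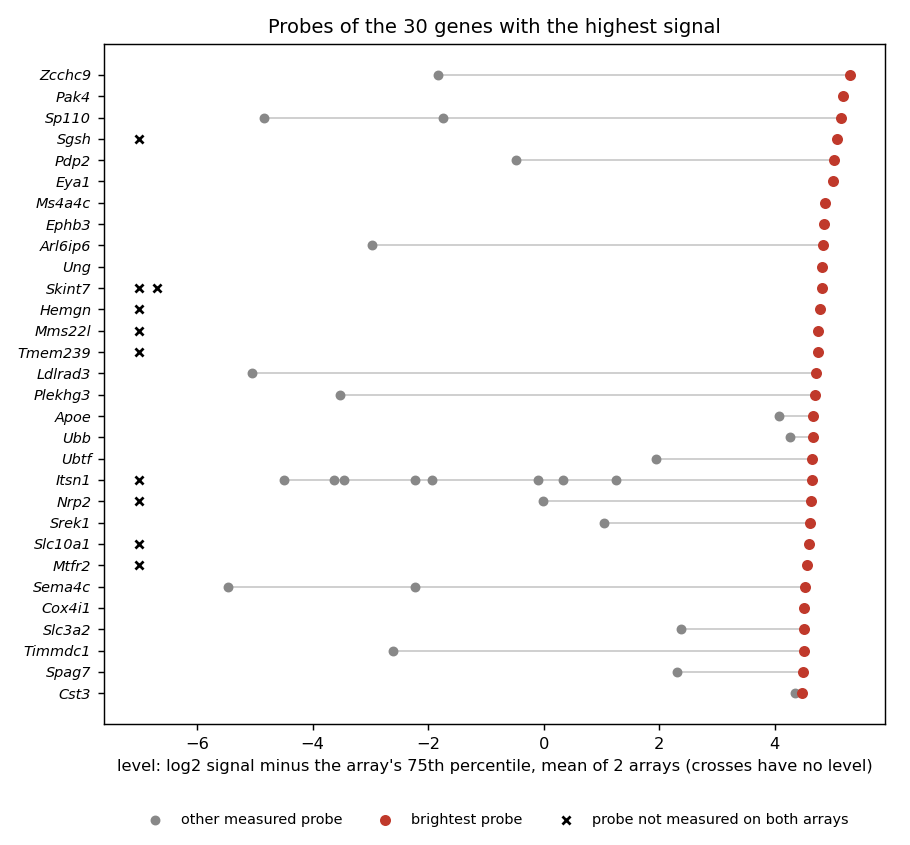
Mean level over the 2 arrays of every probe of the 30 brightest genes. Red points are the probe that represents the gene, grey points are its other measured probes, and crosses are probes not measured on both arrays, drawn at a fixed place without a level. For most genes the red point stands alone at the right, and only Apoe, Ubb and Cst3 have all their probes close together.

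Genes whose probes concurred gave another picture. For 1521 genes with at least 2 probes, all were measured and lay within 1 log2 unit of each other, a limit chosen after the values were seen. The brightest 30 of these began with Apoe, Ubb and Cst3, the only members of the first list among them. Ribosomal protein genes filled many of the next places, such as Rpl35a (4.19 and 4.47) and Rpl41 (4.19 and 4.36). Others were Ppia, a cyclophilin (4.21 and 4.26), Cplx2, a complexin of nerve terminals (4.10 and 4.31), Slc25a4, a mitochondrial carrier (4.12 and 4.29), and Aldoc. Gapdh had 3.91 and 4.15, and its 6 probes lay between 4.03 and 3.51. The whole list of cytosolic ribosomal proteins had medians of 99.1 and 99.2, with 79 of 83 measured. Respiratory chain subunits had 97.6 and 97.8, with 64 of 75 measured, and glycolysis genes 96.4 and 96.6.

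Large differences between the 2 arrays lay in few genes, while small shifts to 1 side were found in several lists. Of 79 measured cytosolic ribosomal protein genes, 76 were higher on replicate 2, with a median difference of 0.16. So were 57 of 64 respiratory chain genes, with a median of 0.13, against 47.1% of all measured genes. Lower on replicate 2 were 14 of 15 endothelial and 10 of 11 mural genes, against 52.9% of all measured genes. Among the 7530 genes with a mean level of at least 0, 11 differed by more than 1 log2 unit, and all 11 were higher on replicate 2. Of all measured genes, 38 (0.219%) differed by more than 2 units, 33 of them higher on replicate 2. All 11 measured neutrophil genes were higher on replicate 2, by a median of 1.90, whereas 47.1% of all measured genes were. The calprotectin subunit genes S100a9 and S100a8 had 0.51 and 2.47, and -0.54 and 1.56. The granule genes Camp (-1.94 and 0.40), Ngp (-4.58 and -1.66) and Ltf (-4.61 and -2.01) were likewise higher on replicate 2. Ly6g, which had a marked spot, went the other way with it kept, at 0.31 and -0.08, and Elane was above background on 1 array.

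**Figure D4:**
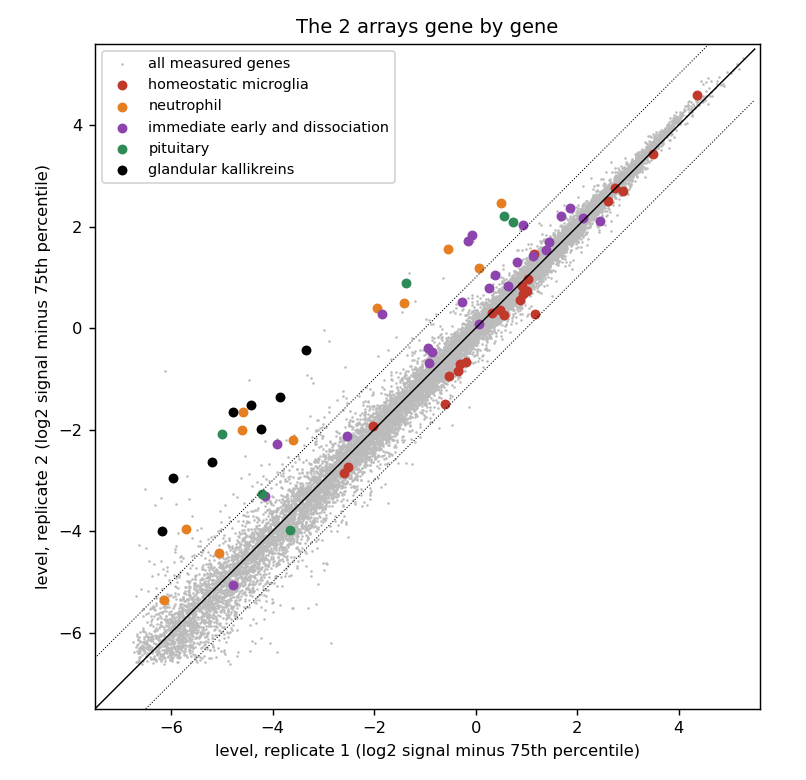
Level on replicate 1 (horizontal) and replicate 2 (vertical) of all 17320 measured genes in grey, with 5 lists in colour. The solid line marks equal levels and dotted lines a difference of 1 log2 unit. Neutrophil, pituitary and kallikrein genes lie above the upper dotted line in most cases. Homeostatic microglia genes lie close to the solid line, 19 of 23 below it. The kallikrein list was added after the values were seen.

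Pituitary hormone genes were also higher on replicate 2. The growth hormone gene Gh had 0.56 and 2.20, Pomc, the precursor of corticotropin, had 0.74 and 2.08, Prl had -1.37 and 0.89 and Cga, the shared hormone alpha chain, had signals of 112 and 780 intensity units. Lhb was the exception at -3.66 and -3.97, and Fshb and Pou1f1 were not above background. The single largest difference was that of Jchain, the joining chain of secreted antibodies, with -6.11 and -0.85, followed by the protease inhibitor gene Slpi with -4.46 and -1.02. Chil4, Klk1, Klk1b4, Doc2g and Klk1b5 were also among the 10 largest, between 2.91 and 3.36 higher on replicate 2. Kcnq1, a potassium channel, was the only one of the 10 lower on replicate 2, with -2.85 and -6.21.

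The immediate early and dissociation list was also mostly higher on replicate 2. It joins immediate early genes, which neurons and other cells induce within minutes of a stimulus, with other genes that cell separation can induce. Of 24 members, all measured, 22 were higher on replicate 2, by a median of 0.49 over the list. Of all measured genes, 47.1% were higher on replicate 2. Fos had -0.08 and 1.84, Fosb had -0.15 and 1.72 from its brighter probe and averaged -6.43 from the other, Egr2 had -1.84 and 0.28 and Nr4a1 had 0.94 and 2.03. Atf3, a stress-induced factor, had -3.92 and -2.28. Npas4, an activity-induced factor known from neurons, had -0.06 and 1.72 outside that list. Jund (2.44 and 2.11) and Rgs1 (-4.78 and -5.06) were lower on replicate 2. In the inflammatory list 14 of 18 were higher on replicate 2, among them Ptgs2 (-1.19 and 0.54) and Cxcl1 (-5.60 and -3.70). The neuronal and astrocyte lists had median differences of -0.01 and 0.03. Genes of the neutrophil, pituitary, and immediate early and dissociation lists were thus mostly higher on the array where most homeostatic microglia genes were lower. Their part in that difference was not tested.

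**Figure D5:**
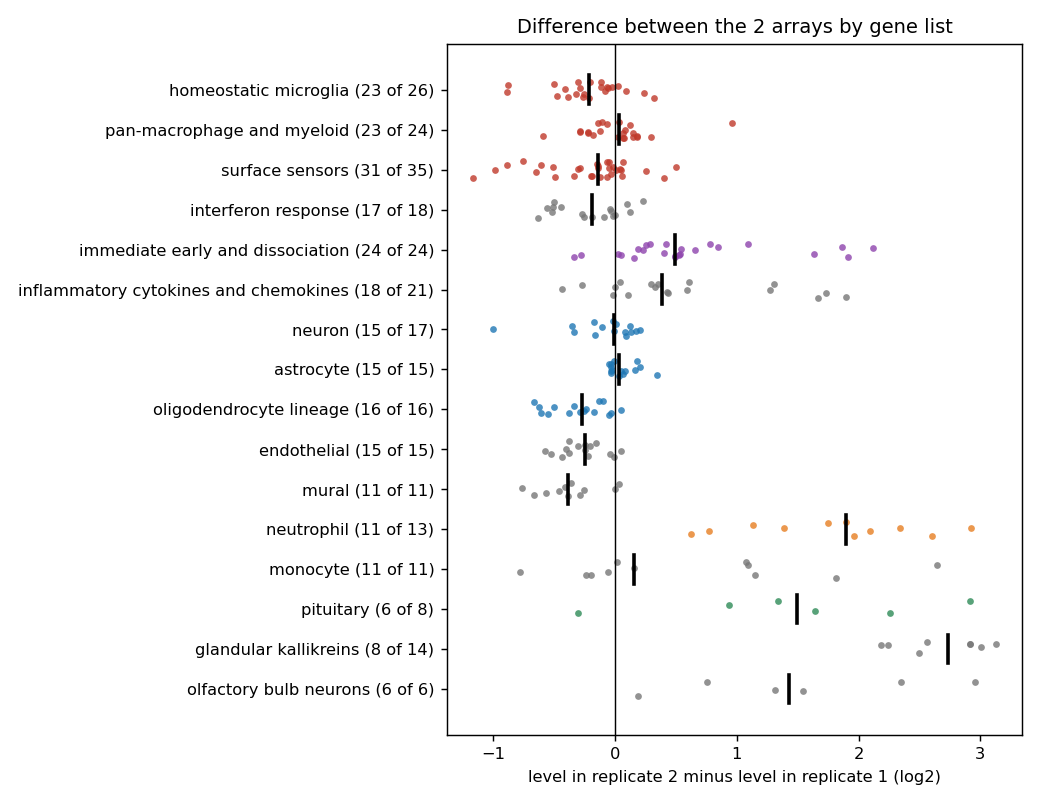
Level on replicate 2 minus level on replicate 1 (log2, horizontal axis) for measured members of 16 lists. Points are genes and black bars are list medians. The kallikrein and olfactory bulb lists were added after the values were seen. Neutrophil (1.90), pituitary (1.49) and kallikrein (2.74) medians lie to the right of 0, and oligodendrocyte (-0.27), endothelial (-0.25) and mural (-0.39) medians to its left.

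The promoters of the 5 immediate early genes that were over 1 log2 unit higher on replicate 2 are shown because these genes were higher on the same array. They are RefSeq sequences on build GRCm38.p6, from 250 bases before to 50 after the start, read on the gene's own strand. Capitals mark TGACG, the half-site of the cyclic AMP response element, in either direction, a motif chosen after the sequences were seen. Egr2 lies at chr10:67535249-67535548, Fos at chr12:85473640-85473939 and Nr4a1 at chr15:101266596-101266895, all on the plus strand. Fosb lies at chr7:19309996-19310295 and Atf3 at chr1:191183284-191183583, both on the minus strand.
Egr2: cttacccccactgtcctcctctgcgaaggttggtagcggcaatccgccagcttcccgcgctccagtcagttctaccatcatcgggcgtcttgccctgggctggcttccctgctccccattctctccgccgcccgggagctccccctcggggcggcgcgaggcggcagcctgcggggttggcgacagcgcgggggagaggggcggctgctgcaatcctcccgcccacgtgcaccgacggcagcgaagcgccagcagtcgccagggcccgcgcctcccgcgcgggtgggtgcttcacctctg
Fos: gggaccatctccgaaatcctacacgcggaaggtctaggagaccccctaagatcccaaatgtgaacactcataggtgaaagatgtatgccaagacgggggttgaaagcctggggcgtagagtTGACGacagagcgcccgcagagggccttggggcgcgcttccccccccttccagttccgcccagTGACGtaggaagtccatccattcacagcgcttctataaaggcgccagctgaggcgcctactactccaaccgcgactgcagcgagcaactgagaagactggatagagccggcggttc
Fosb: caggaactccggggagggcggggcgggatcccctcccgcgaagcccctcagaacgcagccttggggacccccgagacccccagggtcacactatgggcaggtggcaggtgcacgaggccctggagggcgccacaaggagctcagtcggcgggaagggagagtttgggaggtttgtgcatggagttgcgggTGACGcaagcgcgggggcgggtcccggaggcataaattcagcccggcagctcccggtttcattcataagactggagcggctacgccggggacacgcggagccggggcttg
Atf3: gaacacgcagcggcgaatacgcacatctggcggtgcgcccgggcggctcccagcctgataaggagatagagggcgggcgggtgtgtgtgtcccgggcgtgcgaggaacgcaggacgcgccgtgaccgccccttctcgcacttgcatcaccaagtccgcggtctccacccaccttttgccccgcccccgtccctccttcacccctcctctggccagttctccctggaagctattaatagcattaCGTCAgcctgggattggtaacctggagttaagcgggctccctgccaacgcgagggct
Nr4a1: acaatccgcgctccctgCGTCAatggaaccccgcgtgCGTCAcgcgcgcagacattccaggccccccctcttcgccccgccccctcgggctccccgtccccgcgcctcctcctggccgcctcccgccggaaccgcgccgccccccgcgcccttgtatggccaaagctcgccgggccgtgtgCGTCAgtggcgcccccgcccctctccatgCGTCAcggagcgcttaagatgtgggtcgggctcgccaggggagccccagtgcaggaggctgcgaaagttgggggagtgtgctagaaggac

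Egr2, with the largest difference of the list, held no half-site in this window. The table lists 5 promoters for Egr2, of which 3 hold one, and the first is shown. Fos held 2 half-sites, Fosb 1, Atf3 1 and Nr4a1 4. Of the 24 listed genes, 19 had a promoter in the table, and 9 of these (47.4%) held a half-site, by the first promoter listed. Among all 32851 promoters of the same length the share was 20.8%. That share is over promoters and not over genes, and the motif was chosen after the sequences were seen. The 2 shares are therefore no test of enrichment. The full palindrome TGACGTCA was found in 2 of the 19, Btg2 and Dusp1, and in 1.79% of all promoters. The CArG box was found in 1 of the 19, Zfp36, and in 1.63% of all. These matches describe the letters of the windows only.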

How the data were processed

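RNA of 2 samples was read on 2 one-colour Agilent arrays of 1 slide. The deposited scanner files hold intensity values (gProcessedSignal) that the authors obtained with Agilent Feature Extraction, version 11.5.1.1 per the file headers and 9.1 per the submitters' processing notes. They were background-subtracted and detrended, per the file headers. The authors' deposited value table holds log2 values. Each column followed its own array's log2 signal (SD of the difference 0.0019 and 0.0012) with its 75th percentile at 0 and medians of -3.45 and -3.59. It was used as an alternative only.

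Control spots and spots marked as non-uniform or population outliers were left out (3.28% and 1.26% of gene spots, but 12.6% and 10.3% of those with a level over 4). Repeated spots of a probe were averaged, and their median SD within an array was 0.04 and 0.06 log2 units. Probes were named by matching accessions to RefSeq genes of GRCm38.p6, and 33767 of 56605 probes matched. The array headers name another build, so only names were taken. Each array's 75th percentile was subtracted, and a gene took its brightest probe that was well above background on both arrays. No test was run, since no groups were compared. Precision is limited by there being 2 arrays.

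The members and lists were chosen with earlier results of these data known. There were 34 lists, and 8 more were added after the values were seen. The genes named are the 30 brightest, any member of the homeostatic, pan-macrophage and transcription factor lists, in other lists up to 6 of the brightest and those not above background, the 10 largest differences among all and among brighter genes, and the genes of the study. Some others were named after their values were seen. Alternatives covered marked spots, background correction, the choice of probe, the filter, the normalization, the value table and each array alone. Calculations used Python 3.11.15, pandas 2.3.3 and limma 3.58.1 in R 4.3.3. Finding large differences between arrays and placing a list were tried on simulated data with a single passing probe per gene. The choice of probe, the filter and the handling of marked spots were not tested there. Some list members are not reported here by name.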

Additional observations from a re-analysis of the deposited data

Results flagged for a closer look

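Of the 22838 probes that matched no gene symbol here, 53.7% were well above background on both arrays, against 0.974% and 1.95% of the negative control spots on replicates 1 and 2. This is a signal that the ranking of genes did not use. The share among named probes was 73.0%. Of the 50 brightest probes, 15 had no symbol, and the brightest of them averaged 5.18. Most of the 12259 unnamed probes above background carried Ensembl transcript names (4949), genome intervals (2570) or cDNA clone accessions of the AK series (2461). With 2 arrays, no array could be set against the rest of its group.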

How the results depend on the processing

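In all 10 alternatives that left at least 3 members of each list, the neuron, astrocyte and oligodendrocyte medians stayed above the homeostatic microglia median. Quantile normalization and the value table keep the order within an array, so their medians were unchanged and give no check. The values below are means of the 2 arrays' medians. With marked spots kept, the pan-macrophage median was 75.9 and the astrocyte median 89.3. With the median over a gene's probes, 16 of the 30 brightest genes stayed, and the medians were 74.0 for homeostatic microglia, 82.6 for pan-macrophage, 84.6 for astrocyte, 91.7 for neuron and 68.2 for endothelial genes. With probes above background on at least 1 array, 622 genes differed by over 1 log2 unit and the astrocyte median was 90.4. Without a filter, 1112 genes did, since dim probes entered, and the medians were 74.3, 82.9, 92.5, 94.5 and 69.3 in the order above, and 44.2 for neutrophil genes. With normexp, 127 genes differed by over 1 log2 unit, and the cause was not tested. Normexp was run on the median signal, chosen after seeing the data, because the planned run on mean signals had no such column to use. The next choices were also made after seeing the data. Genes with concurring probes shared 3 of the 30 brightest, with a pan-macrophage median of 62.6. They left only 2 homeostatic genes (median 98.8), 2 astrocyte genes (92.4), 2 oligodendrocyte genes (79.7) and no neuronal gene. There the homeostatic median was above the other 2, on too few genes to decide the order. Genes with 1 probe gave 79.9 for pan-macrophage and 95.1 for astrocyte genes.

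Leaving out each array in turn gave 17834 to 17921 measured genes, 27 to 29 of the 30 brightest, and medians of 60.8 to 70.6 for homeostatic microglia, 76.9 to 77.4 for pan-macrophage, 89.7 to 90.02 for astrocyte, 72.1 to 82.3 for oligodendrocyte, 92.1 to 93.1 for neuron, 55.1 to 63.1 for endothelial and 21.9 to 36.7 for neutrophil genes. Of 73 levels of named genes, 25 moved by more than the SD between the arrays with the median over probes (21 by over 1 log2 unit), 22 with normexp, 2 with quantile normalization, and 1, Siglech, with marked spots kept. The value table moved 51, by a median shift of 0.51 that its own centring gives. No paired analysis was possible because only 1 group was described. Signal over background limits the dimmest genes, and 2 arrays limit every spread.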

Other observations

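Neuropeptide and regional neuron genes, listed after the values were seen, were present on both arrays. Of 7 neuropeptide genes, 6 were measured, with list medians of 89.4 and 89.3. Cck, a peptide of many cortical neurons, had levels of 3.28 and 3.38, Penk, the enkephalin precursor, had 3.09 and 2.94 (other probe 0.11), and Npy had 2.36 and 2.44. Sst, with a marked spot kept, had 2.88 and 2.99. Ppp1r1b, the DARPP-32 protein of striatal projection neurons, had 2.90 and 2.93 (other probe 1.23). Hypothalamic peptide genes were measured too, with Pmch at 2.48 and 2.57, Oxt at 1.97 and 2.05, Avp at 0.88 and 1.18 and Hcrt at 0.60 and 0.67. The hindbrain genes Slc6a4 and Slc6a5, for serotonin and glycine transport, were not above background on either array, and neither was the cerebellar gene Cbln3.

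Regional genes did not all match between the arrays. All 6 olfactory bulb genes were higher on replicate 2, by a median of 1.43, among them Doc2g (-2.99 and -0.04), Eomes (-3.26 and -1.72, other probe -4.14) and Scgn (-6.62 and -4.27). All 5 measured cerebellar genes were lower on replicate 2, by a median of 0.47, among them Pcp2 (-0.68 and -1.22). Of all measured genes, 47.1% were higher and 52.9% lower on replicate 2. Both regional lists were made after the values were seen, and Doc2g was already among the largest differences. The 8 measured glandular kallikreins of 14 were higher on replicate 2 by 2.18 to 3.13. That list was also added after the values were seen, when Klk1, Klk1b4 and Klk1b5 were already among the largest differences. Its shift to 1 side is therefore partly built in. Kallikrein genes are related copies, and whether their probes share signal was not tested. Plasma cell genes other than Jchain included Mzb1, with -6.19 and -3.95.

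Coding genes filled all 30 of the brightest places, and 15760 of all 17320 measured genes were coding. Probes without a symbol, 15 of the 50 brightest, did not enter this ranking. Of 3036 long non-coding RNA genes with a named probe, 1357 (44.7%) were measured, with a median percentile of 18.6, against 78.4% of 20100 coding genes, with a median of 53.1.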
